A study of Mus musculus with 11 samples.

Results

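Chemokines are small secreted proteins that attract leukocytes, and this set of genes holds chemokines and the receptors through which cells follow them. It was defined as a list of 36 mouse genes, found in the value table by Entrez number through the gene symbols of the deposited NZB/W baseline table. Of these, 34 had values among the 16475 Entrez genes measured, while Ccl19 and Ccl28 had no row and were not analysed here. The 34 genes comprised 10 CC chemokines of monocytes, macrophages and eosinophils, 4 CC chemokines of lymphocytes and dendritic cells, 4 CXC chemokines that attract neutrophils, 3 interferon-inducible CXC chemokines, 4 homeostatic and other CXC chemokines, and 9 receptors.

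RNA was measured on Affymetrix arrays in whole kidneys of 2 lupus-prone F1 hybrids before nephritis, 7 kidneys of NZB/W mice at 6 weeks of age and 4 of NZW/BXSB mice at 8 weeks. All mice were prenephritic and non-proteinuric, received no treatment, and were perfused with saline before harvest according to the study's methods, which also describe the NZB/W mice as female and the NZW/BXSB mice as male. Male BXSB offspring carry the Y-linked Yaa autoimmunity locus, which NZB/W females lack, and both hybrids have an NZW parent. Strain, sex, age and the set of arrays therefore cannot be told apart, and a strain difference below is a difference between these groups. Kidneys with nephritis and those of NZM2410 mice were not analysed here. In whole kidney, fewer cells of a type and less RNA per cell cannot be told apart.

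Chemokine receptors are G protein-coupled receptors, and most bind more than 1 ligand, while atypical receptors take ligands up without signalling through G proteins. Inflammatory chemokines such as Ccl2 and Cxcl1 are induced by cytokines through NF-kB, Cxcl9, Cxcl10 and Cxcl11 are induced by interferons, and homeostatic chemokines such as Cxcl12 and Cxcl13 are made constitutively to place cells in tissues. In lupus nephritis, tubular, glomerular and endothelial cells as well as infiltrating macrophages are known sources of chemokines.

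Promoter sequences are shown for 3 members on which the results turn, Cxcl10 because it stood apart in a single kidney, and Cxcl1 and Cxcl2 because these neighbouring genes share a motif and bind the same receptor. The windows are RefSeq sequences of build GRCm38.p6, each 300 bases long, from 250 before to 50 after the annotated start, written 5′ to 3′ on the strand of the gene. The Cxcl10 window is chr5:92348840-92349139, minus strand, with capitals on its match to the interferon-stimulated response element. The Cxcl1 window is chr5:90890995-90891294 and the Cxcl2 window chr5:90903649-90903948, both plus strand, with capitals on matches to the NF-kB consensus.
Cxcl10: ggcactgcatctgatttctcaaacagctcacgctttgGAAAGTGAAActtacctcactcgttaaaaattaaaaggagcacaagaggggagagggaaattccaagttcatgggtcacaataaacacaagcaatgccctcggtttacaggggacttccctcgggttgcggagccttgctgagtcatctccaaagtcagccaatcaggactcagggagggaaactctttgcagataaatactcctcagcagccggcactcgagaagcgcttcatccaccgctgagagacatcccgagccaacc
Cxcl1: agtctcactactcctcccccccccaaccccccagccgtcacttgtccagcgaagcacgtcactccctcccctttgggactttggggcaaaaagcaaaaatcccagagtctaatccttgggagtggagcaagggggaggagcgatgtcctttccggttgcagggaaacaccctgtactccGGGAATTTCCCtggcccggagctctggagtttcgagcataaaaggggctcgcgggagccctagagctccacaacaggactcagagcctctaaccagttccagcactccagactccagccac
Cxcl2: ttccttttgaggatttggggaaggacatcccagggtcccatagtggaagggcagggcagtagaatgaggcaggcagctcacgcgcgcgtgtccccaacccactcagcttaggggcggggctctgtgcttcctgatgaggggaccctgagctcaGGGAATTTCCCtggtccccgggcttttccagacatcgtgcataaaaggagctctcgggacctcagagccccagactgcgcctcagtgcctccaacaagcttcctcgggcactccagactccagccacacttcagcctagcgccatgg
The response element was searched on both strands as TTTC, any 2 bases and TTTC again, and Cxcl10 held it on the opposite strand at -213 to -204 from the start. Cxcl10 also held the NF-kB consensus at -159 to -150 and, in overlapping matches, at -104 to -94. In Cxcl1 overlapping matches on both strands covered -71 to -61, and in Cxcl2 they covered -97 to -87. RefSeq promoters were given for 23 of the 34 genes, in 25 windows. The response element was in 2 of the 25, those of Cxcl10 and Cxcl14, against 3.44% of all 32851 promoters in the table. The NF-kB consensus was in 8 of the 25 (Ccl9, Ccl20, Cxcl1, Cxcl2, Cxcl10, Ccr1, Ccr3 and Ccr6) against 8.46% of all promoters. A match describes letters in the window and no binding.

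The log2 values as deposited were on a different scale in each strain. Array medians of the tested genes were 7.36 to 7.40 in NZB/W and 8.05 to 8.14 in NZW/BXSB, and the median gene was 0.69 log2 units lower in NZB/W as deposited. Levels and differences are therefore given on a common scale, after quantile normalization over the 11 arrays, which assumes that the strains share a distribution of signals, and the difference on the deposited scale is given beside each tested one. A difference is the NZB/W mean minus that of NZW/BXSB, in log2 units, with the SE of limma. Adjusted p-values are Benjamini-Hochberg values over the 14419 genes that the authors called above baseline in at least 1 strain. Folds are given only above a background level, the 95th percentile of genes not above baseline (NZB/W 5.42, NZW/BXSB 5.03). The X-inactivation transcript Xist was at least 9.70 in NZB/W and at most 4.69 in NZW/BXSB, and the Y-linked Ddx3y was 3.84 to 3.98 against 8.40 to 8.97, as female and male kidneys differ. Nephron markers were above baseline in both strains in all 12 cases, and adrenal markers, which are not of the kidney, had a list mean of 5.50 in NZB/W replicate 2 and 7.89 to 9.18 in the remaining 6.

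Chemokine genes differed between the young kidneys of the strains in both directions. Of the 31 members tested, 26 were called at an adjusted p below 0.05 (83.9%, against 69.4% of all tested genes), so that a call by itself was common in these data. Higher in NZB/W were 16 members (51.6%, against 33.3% of all tested genes), and lower were 10 (32.3%, against 36.1%). On the deposited scale the split was 2 higher and 17 lower, against 5.56% and 84.0% of all tested genes, and after median centring of each array 16 higher and 9 lower, against 34.6% and 33.7%. The 5 members not called were Ccl22, Cxcl2, Cxcl10, Ccr2 and Cxcr3, and Cxcl5, Ccr3 and Cxcr5 were above baseline in neither strain and were not tested. In 20 members the kidneys of the strains did not overlap (64.5%, against 54.6% of all tested genes), 13 of them higher in NZB/W and 7 lower. With the fold limits of the study (at least 1.4 or at most 0.7) and an adjusted p of at most 0.001, 8 members were higher and 5 lower, against 27.9% of all tested genes in either direction. The median difference of the tested members was 0.27, against -0.01 for all tested genes, and as deposited it was -0.37 against -0.69. The median size of the difference was 0.42 in the members and 0.31 in all tested genes. The background level was itself higher in NZB/W (5.42 against 5.03), and several higher members were dim. Ccl3, Ccr1 and Cxcr6 had means below it in both strains. Ccl7, Cxcl11, Cxcl15 and Ccr7 had means at most 0.38 above it in either strain. The part of this shift in the share of higher calls and in the median difference was not tested. The calls depend on the scale for many of the higher members, and 9 of the 16 changed sign as deposited. The 10 lower members kept theirs on all 3 scales tried. The deposited offset, -0.69 at the median gene, moves differences downward, so this contrast does not show that the lower calls are firmer.

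**Figure D1:**
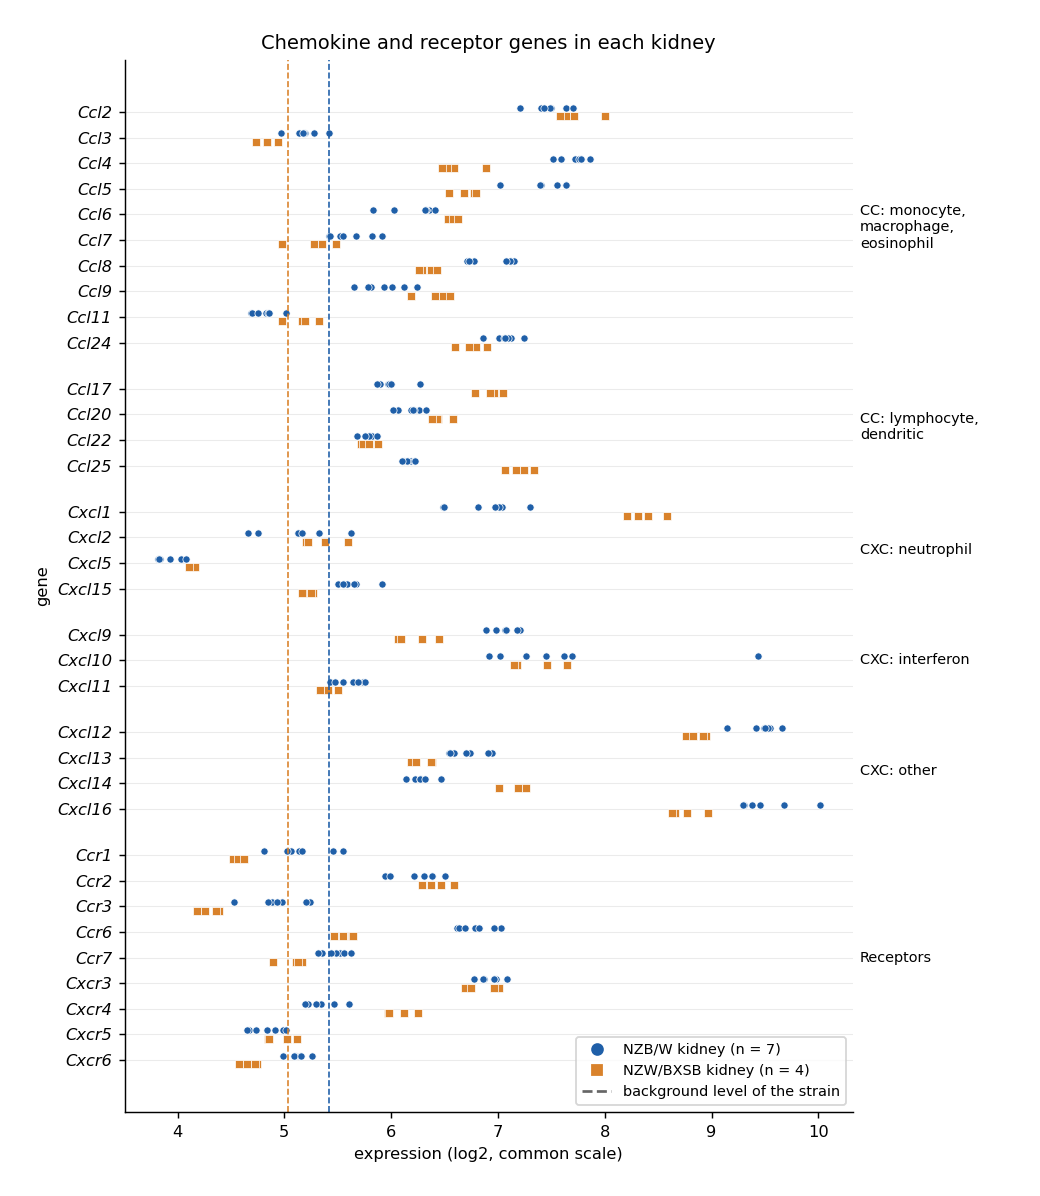
Expression of the 34 chemokine and receptor genes with values, in log2 units on the common scale, with a blue circle for each of the 7 NZB/W kidneys, an orange square for each of the 4 NZW/BXSB kidneys and dashed lines at the background level of each strain (5.42 and 5.03). Cxcl1, Ccl17, Ccl25 and Cxcl14 lie lower and Ccl4, Ccr6 and Cxcl9 higher in all NZB/W kidneys, and their mean differences have the same sign as deposited, where the strains overlap for Ccl4 and Cxcl9 and Cxcl9 was not called; Cxcl10 has 1 NZB/W kidney at 9.43.

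**Figure D2:**
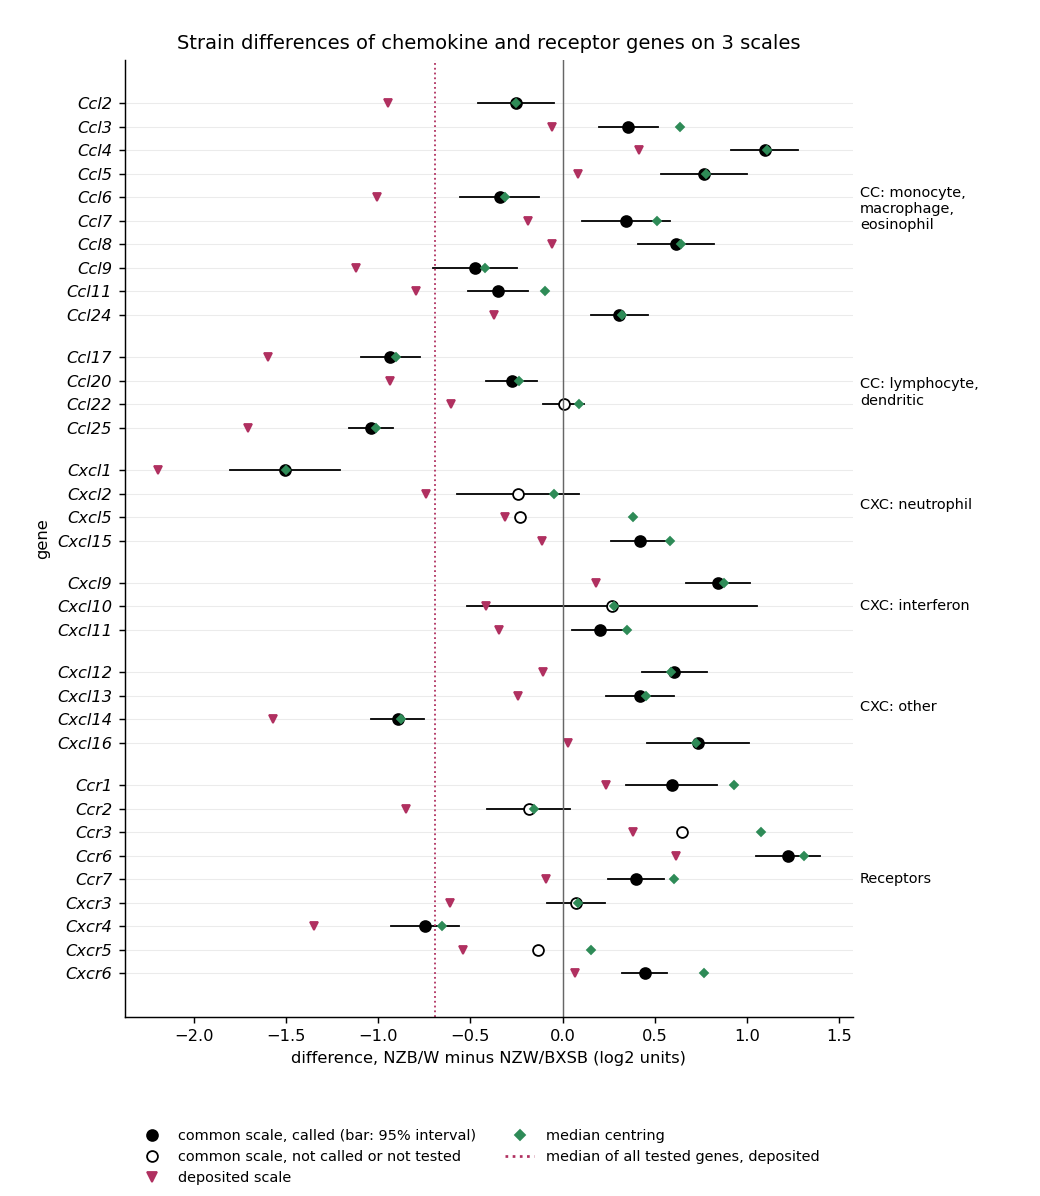
Strain difference of each member in log2 units (NZB/W minus NZW/BXSB) on the common scale (circles, filled where called, bars are 95% intervals), as deposited (triangles) and after median centring (diamonds). The dotted line marks the median of all tested genes as deposited (-0.69), and the triangles of 12 tested members lie on the other side of 0 from their circles.

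Among the CC chemokines of monocytes, macrophages and eosinophils, 6 of 10 were higher and 4 lower in NZB/W (1 higher and 5 lower as deposited). For these and later counts, the shares of all tested genes were 33.3% higher and 36.1% lower (5.56% and 84.0% as deposited). Ccl4, which attracts macrophages and T cells, ranged from 7.52 to 7.86 (median 7.76) in NZB/W and was 6.59, 6.53, 6.47 and 6.89 in NZW/BXSB. All NZB/W kidneys were above all NZW/BXSB kidneys, and Ccl4 was 2.14-fold higher, by 1.10 ± 0.08 (0.42 as deposited, adjusted p = 8.28e-08). Ccl5, which attracts T cells and monocytes, ranged from 7.02 to 7.64 (median 7.55) in NZB/W against 6.77, 6.68, 6.80 and 6.54. It was 1.70-fold higher without overlap, by 0.77 ± 0.11 on the common scale and by 0.08 as deposited (adjusted p = 2.55e-05 and 0.467). Ccl8, which in the mouse is an agonist of Ccr8, ranged from 6.71 to 7.15 (median 7.07) against 6.37, 6.43, 6.29 and 6.26. Its kidneys did not overlap either, and it was 1.53-fold higher on the common scale, by 0.62 ± 0.10 (adjusted p = 6.57e-05), with the opposite sign as deposited (-0.05).

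Ccl3, a ligand of Ccr1 and a neighbour of Ccl4 on chromosome 11, lay below the background level in both strains. It ranged from 4.97 to 5.42 (median 5.19) in NZB/W and was 4.73, 4.84, 4.84 and 4.94 in NZW/BXSB, a difference of 0.36 ± 0.07 that turned to -0.06 as deposited (adjusted p = 7.15e-04 and 0.455). Ccl7, a ligand of the monocyte receptor Ccr2, was near background as well, at 5.42 to 5.91 (median 5.55) against 5.49, 5.35, 4.98 and 5.28. The strains overlapped and the difference was 0.34 ± 0.11 (-0.18 as deposited, adjusted p = 0.0127), and without NZW/BXSB replicate 3, the lowest kidney, it was 0.25 and no longer called. Ccl24, eotaxin-2, which attracts eosinophils through Ccr3, ranged from 6.86 to 7.24 (median 7.06) against 6.80, 6.73, 6.60 and 6.90. It overlapped, and was 1.24-fold higher on the common scale, by 0.31 ± 0.07, but lower as deposited (-0.37, adjusted p = 0.00182 and 5.19e-04).

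The other 4 genes of the group were lower in NZB/W on each scale. Ccl2, the main chemokine of inflammatory monocytes and a ligand of Ccr2, ranged from 7.21 to 7.70 (median 7.49) against 7.64, 7.58, 7.71 and 8.00. The strains overlapped and the fall was small, by 0.25 ± 0.10 or 1.19-fold (-0.95 as deposited, adjusted p = 0.0296). The highest NZW/BXSB kidney, replicate 4, carried part of it, and without that kidney the difference was -0.16 and was not called. It was not called without NZW/BXSB replicate 3 (-0.26) or without NZB/W replicates 6 and 7 (-0.19) either. Ccl6 and Ccl9, 2 mouse ligands of Ccr1 that lie side by side on chromosome 11, were both lower. Ccl6 ranged from 5.83 to 6.41 (median 6.32) against 6.53, 6.53, 6.58 and 6.63, without overlap, and was 1.27-fold lower, by -0.34 ± 0.10 (-1.01 as deposited, adjusted p = 0.00699). Ccl9 ranged from 5.66 to 6.25 (median 5.93) against 6.49, 6.41, 6.18 and 6.55, with overlap, and was 1.39-fold lower, by -0.47 ± 0.11 (-1.12 as deposited, adjusted p = 0.00129). Ccl11, eotaxin-1, was not above baseline in NZB/W. It ranged from 4.69 to 5.02 (median 4.83) against 5.32, 4.98, 5.16 and 5.19, a difference of -0.35 ± 0.07 (-0.79 as deposited, adjusted p = 8.88e-04) that fell to -0.10 and was no longer called after median centring.

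The list mean of macrophage and dendritic cell markers overlapped between the strains. Of 15 such genes, 5 were higher and 2 lower in NZB/W, and the mean level was 7.72 to 8.34 in NZB/W and 7.80 to 8.21 in NZW/BXSB. As deposited none was higher and 11 were lower. Their part in the chemokine differences was not tested.

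The CC chemokines of lymphocytes and dendritic cells were lower or not called in NZB/W, 3 of 4 lower and none higher, on the common scale and after median centring, and 4 of 4 lower as deposited. Of all tested genes, 36.1% were lower on the common scale, 33.7% after median centring and 84.0% as deposited. Ccl25, a ligand of Ccr9 made in thymus and small intestine, ranged from 6.10 to 6.23 (median 6.16) in NZB/W and was 7.34, 7.17, 7.24 and 7.07 in NZW/BXSB. It was 2.05-fold lower, by -1.04 ± 0.06 (-1.71 as deposited, adjusted p = 2.81e-09), and the NZB/W kidneys lay within a range narrower than the gap between the strains. Its receptor gene Ccr9 was above baseline in neither strain (4.38 to 4.52 and 4.59 to 4.63). Ccl17, which attracts T cells through Ccr4, ranged from 5.87 to 6.27 (median 5.98) against 6.97, 6.79, 6.93 and 7.04. It was 1.91-fold lower without overlap, by -0.93 ± 0.07 (-1.60 as deposited, adjusted p = 1.12e-07). Ccl22, the other ligand of Ccr4 and next to Ccl17 on chromosome 8 among the members, was 5.68 to 5.87 in NZB/W and 5.71 to 5.88 in NZW/BXSB. Its difference was 0.01, with a 95% interval of -0.10 to 0.12 (adjusted p = 0.908), and -0.60 as deposited, close to the median of all genes. Ccr4 itself ranged from 5.83 to 6.00 in NZB/W and was 5.47, 5.35, 5.56 and 5.57 in NZW/BXSB, higher by 0.44 ± 0.06 on the common scale (adjusted p = 1.43e-05) and -0.14 as deposited. Ccl20, an epithelial chemokine and the ligand of Ccr6, ranged from 6.02 to 6.32 (median 6.21) against 6.44, 6.43, 6.39 and 6.58. It was 1.21-fold lower without overlap, by -0.28 ± 0.06 (-0.93 as deposited, adjusted p = 0.00167).

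Cxcl1, which attracts neutrophils through Cxcr2, showed the largest difference of the 31 tested members on each of the 3 scales. It ranged from 6.49 to 7.30 (median 6.97) in NZB/W and was 8.21, 8.40, 8.31 and 8.58 in NZW/BXSB, so that the strains did not overlap. The fall was 2.84-fold, by -1.51 ± 0.14 (-2.20 as deposited, adjusted p = 4.63e-07). Cxcl2, its neighbour with the same stretch of capitals in its promoter shown above, binds the same receptor and was closer to background. It was 5.33, 5.62, 5.13, 5.12, 5.16, 4.66 and 4.75 in NZB/W replicates 1 to 7 and 5.38, 5.21, 5.22 and 5.59 in NZW/BXSB. The strains overlapped, and the difference of -0.24 (95% interval -0.57 to 0.09) was not called on the common scale (adjusted p = 0.180). It was called without NZB/W replicate 2, the highest kidney (-0.32), and as deposited (-0.74). Cxcl5, another ligand of Cxcr2, was above baseline in neither strain (3.82 to 4.08 and 4.10 to 4.16). Cxcl15, a mouse chemokine known from lung, ranged from 5.50 to 5.92 (median 5.58) against 5.17, 5.17, 5.27 and 5.25. It was 1.34-fold higher without overlap on the common scale, by 0.42 ± 0.07 (adjusted p = 1.51e-04), and -0.11 as deposited. Its means were near the background levels, 0.21 above in NZB/W and 0.18 above in NZW/BXSB. The background level was higher in NZB/W as well (5.42 against 5.03), and the fold of Cxcl15 cannot be told apart from that shift.

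The receptor Cxcr2 ran the other way from Cxcl1. It was 7.88, 7.41, 7.58, 6.96, 7.75, 7.95 and 7.94 in NZB/W and 6.68, 6.73, 5.67 and 6.01 in NZW/BXSB, 2.58-fold higher without overlap, by 1.37 ± 0.22 (0.69 as deposited, adjusted p = 8.66e-05). The mean of 7 neutrophil markers was 6.06 to 6.27 in NZB/W and 5.71 to 5.92 in NZW/BXSB. Of these markers, 3 were higher and 2 lower (3 and 4 as deposited). The part of neutrophils in the level of Cxcr2 was not tested. In the fixed list of NF-kB pathway genes and targets, 4 of 18 were higher and 6 lower (0 and 15 as deposited), with a median difference of 0.04. On the common scale 3 targets of this list were lower in every NZB/W kidney than in any NZW/BXSB kidney. They were Sele (4.26 to 4.53 against 5.15 to 5.26), Il6 (3.93 to 4.15 against 4.38 to 4.63) and Cebpb (7.82 to 8.35 against 8.48 to 8.83). Il6 lay below the background level in both strains and Sele in NZB/W. Tnf, a cytokine that induces Cxcl1, was 1.86-fold higher in NZB/W (6.85 to 7.11 in NZW/BXSB and 7.53 to 8.06 in NZB/W), by 0.90 ± 0.10 (0.21 as deposited, adjusted p = 2.12e-06), whereas Nfkbie, which encodes an inhibitor of NF-kB, was 1.57-fold lower, by -0.65 ± 0.09 (-1.27 as deposited, adjusted p = 1.80e-05).

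The interferon-inducible CXC chemokines share the receptor Cxcr3 of activated T and NK cells but were not alike. Cxcl9, which is induced chiefly by interferon gamma, ranged from 6.88 to 7.21 (median 7.07) in NZB/W and was 6.06, 6.10, 6.45 and 6.29 in NZW/BXSB. It was 1.79-fold higher without overlap, by 0.84 ± 0.08 (adjusted p = 7.28e-07), and as deposited the difference was 0.18 and was not called (adjusted p = 0.0615). Cxcl11 ranged from 5.43 to 5.76 (median 5.65) against 5.39, 5.50, 5.33 and 5.40. It overlapped and was 1.15-fold higher, by 0.20 ± 0.07 (adjusted p = 0.0190), but -0.34 as deposited, and without NZW/BXSB replicate 3 it was 0.18 and not called. Its means were near the background levels, 0.19 above in NZB/W and 0.38 above in NZW/BXSB. The background level was higher in NZB/W as well (5.42 against 5.03), and the fold of Cxcl11 cannot be told apart from that shift. Cxcr3 was 6.77 to 7.08 in NZB/W and 6.69 to 7.01 in NZW/BXSB, a difference of 0.07 (95% interval -0.09 to 0.23) that was not called (adjusted p = 0.390) and was -0.61 as deposited.

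Cxcl10, a chemokine of type I and type II interferon responses, was set apart by a single kidney. It was 7.45, 7.62, 7.70, 7.26, 9.43, 6.92 and 7.02 in NZB/W replicates 1 to 7 and 7.18, 7.15, 7.46 and 7.64 in NZW/BXSB. The strains overlapped, and the difference of 0.27 (95% interval -0.52 to 1.06, -0.42 as deposited) was not called (adjusted p = 0.529). Without NZB/W replicate 5 the difference was -0.03. The same kidney was high for the fixed list of interferon-stimulated genes, with a mean of 9.30 over 18 genes. The mean was 7.59 to 8.04 in the remaining 6 and 7.22 to 7.39 in NZW/BXSB. Between the strains, 12 of the 18 genes were higher and 1 lower in NZB/W (3 and 1 as deposited). Their median difference was 0.71, and 0.02 as deposited. Ifit1, an antiviral protein, was 10.08 in NZB/W replicate 5 against at most 7.63 elsewhere in NZB/W. Ccl12, a mouse monocyte chemokine of the chromosome 11 cluster that is not in the set, was 6.84 in this kidney and 5.40 to 6.05 in the rest of the strain. Cxcl9 and Cxcl11 were within the range of the other NZB/W kidneys there, at 7.18 and 5.69. Leaving this kidney out left 16 members higher and 10 lower.

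**Figure D3:**
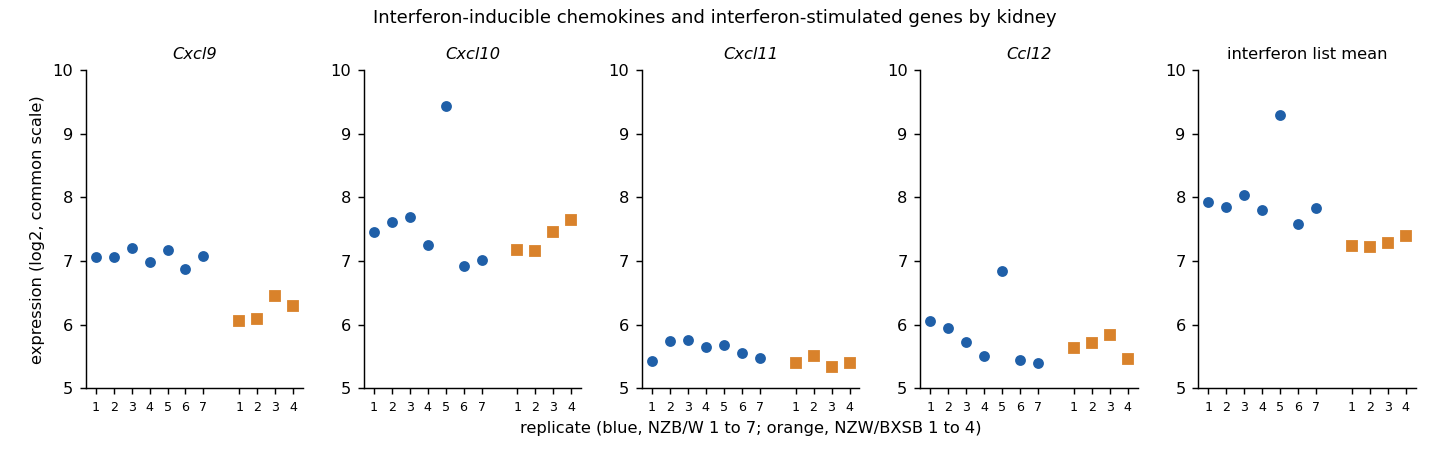
Expression in log2 units on the common scale of Cxcl9, Cxcl10, Cxcl11, Ccl12 and the mean of 18 interferon-stimulated genes, with a point for each kidney (blue circles, NZB/W replicates 1 to 7, orange squares, NZW/BXSB replicates 1 to 4). NZB/W replicate 5 is the highest kidney for Cxcl10 (9.43), Ccl12 (6.84) and the list mean (9.30), and lies among the other NZB/W kidneys for Cxcl9 and Cxcl11.

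Of the homeostatic and other CXC chemokines, 3 were higher and 1 lower on the common scale (0 and 2 as deposited). Cxcl12, a constitutive chemokine of stromal and vascular cells, ranged from 9.15 to 9.66 (median 9.50) in NZB/W and was 8.95, 8.76, 8.83 and 8.92 in NZW/BXSB. It was 1.52-fold higher without overlap, by 0.61 ± 0.08 (adjusted p = 1.82e-05), and -0.11 as deposited. Of 10 endothelial markers, 5 were higher and none lower (0 and 7 as deposited), with list means of 8.73 to 8.96 in NZB/W and 8.44 to 8.66 in NZW/BXSB. Of 10 fibroblast and stromal markers, 3 were higher and none lower (0 and 6 as deposited), with list means of 8.40 to 8.93 and 8.11 to 8.42. Their part in the differences of Cxcl12 and of the endothelial receptor Ackr1 was not tested. Cxcl16, a membrane-bound ligand of Cxcr6 that is also a scavenger receptor, was 10.01, 9.46, 9.37, 9.30, 9.68, 9.30 and 9.30 against 8.65, 8.63, 8.77 and 8.96. It was 1.66-fold higher without overlap, by 0.73 ± 0.13 (adjusted p = 1.69e-04), with NZB/W replicate 1 highest, and by 0.03 as deposited, where it was not called. Cxcl13, which attracts B cells to follicles through Cxcr5, ranged from 6.54 to 6.95 (median 6.70) against 6.18, 6.38, 6.23 and 6.37. It was 1.34-fold higher without overlap, by 0.42 ± 0.09 (adjusted p = 6.07e-04), but -0.24 as deposited, and Cxcr5 was above baseline in neither strain (4.65 to 5.02 and 4.85 to 5.12). Cxcl14, a chemokine of epithelia, ranged from 6.14 to 6.46 (median 6.27) against 7.24, 7.01, 7.26 and 7.19. It was 1.86-fold lower without overlap, by -0.89 ± 0.07 (-1.57 as deposited, adjusted p = 5.83e-08).

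Of the 9 receptors, 7 were tested, and 4 were higher and 1 lower in NZB/W (1 and 3 as deposited). Ccr6, a receptor of B cells, Th17 cells and regulatory T cells, ranged from 6.62 to 7.03 (median 6.79) in NZB/W and was 5.55, 5.63, 5.46 and 5.64 in NZW/BXSB. It was 2.33-fold higher without overlap, by 1.22 ± 0.08 (0.62 as deposited, adjusted p = 1.97e-08), and with Ccl4 it was 1 of the 2 members called higher on both scales. Cxcr4, the receptor of Cxcl12 on leukocytes and progenitor cells, was lower. It ranged from 5.20 to 5.61 (median 5.30) in NZB/W, with a mean below the background level, against 5.97, 6.25, 6.12 and 5.98, at least 1.58-fold lower, by -0.75 ± 0.09 (-1.35 as deposited, adjusted p = 3.67e-06). Ccr7, which guides dendritic cells and T cells to lymph nodes, ranged from 5.32 to 5.62 (median 5.49) against 5.16, 5.10, 5.13 and 4.89. It was 1.32-fold higher without overlap, by 0.40 ± 0.07 (adjusted p = 1.78e-04), and -0.09 as deposited. Its means were near the background levels, 0.05 above in NZB/W and 0.04 above in NZW/BXSB. The background level was higher in NZB/W as well (5.42 against 5.03), and the fold of Ccr7 cannot be told apart from that shift.

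The remaining receptors were dim or not called. Ccr1, a receptor of macrophages and neutrophils, was below the background level in both strains, at 4.81 to 5.55 (median 5.14) against 4.61, 4.52, 4.57 and 4.62. Its difference was 0.59 ± 0.11 without overlap (0.24 as deposited, adjusted p = 4.08e-04 and 0.0722). Cxcr6, the receptor of Cxcl16 on T and NK cells, was above baseline in NZB/W alone, at 4.99 to 5.26 (median 5.11) against 4.58, 4.75, 4.73 and 4.65. Its difference was 0.45 ± 0.06 without overlap (0.07 as deposited, adjusted p = 1.08e-05 and 0.282). Ccr2, the receptor of Ccl2 on inflammatory monocytes, ranged from 5.94 to 6.50 in NZB/W and was 6.46, 6.29, 6.59 and 6.38 in NZW/BXSB. The difference of -0.18 (95% interval -0.41 to 0.04) was not called (adjusted p = 0.131), but it was called as deposited (-0.85) and with array weights (-0.27). Ccr3, the eotaxin receptor, was above baseline in neither strain (4.53 to 5.24 and 4.18 to 4.39).

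Lymphocyte markers were measured beside the receptors. Of 14 T and NK cell markers tested, 8 were higher and 3 lower in NZB/W (2 and 9 as deposited), and the list mean was 5.77 to 5.90 in NZB/W and 5.66 to 5.77 in NZW/BXSB. Of 10 markers of B and plasma cells, 5 were higher and 3 lower (3 and 5 as deposited), with list means of 6.21 to 6.41 and 6.00 to 6.22. Their part in the differences of Ccr6, Ccr7 and Cxcr6 was not tested.

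Ligands and receptors of a pair did not always differ in the same direction. Cxcl12 was higher and Cxcr4 lower, while the atypical receptor Ackr3, which binds Cxcl12 as well, ranged from 10.03 to 10.57 in NZB/W and was 9.77, 9.95, 9.57 and 10.09 in NZW/BXSB, 1.36-fold higher on the common scale, by 0.44 ± 0.12 (-0.27 as deposited, adjusted p = 0.00357). Ccl20 was lower and Ccr6 higher, and Ccl17 was lower and Ccr4 higher. Ccr4 was also higher after median centring (0.55), but not as deposited (-0.14). Cxcl16 and Cxcr6 were both higher on the common scale, but neither was called as deposited. Cx3cl1, a membrane-bound chemokine of endothelium and tubules, was 8.72 to 9.07 against 8.86 to 9.31, and its receptor Cx3cr1 on monocytes was 6.38 to 6.71 against 6.24 to 6.56. Neither was called on the common scale (differences of -0.14 and 0.17, adjusted p = 0.173 and 0.0773), while both were lower as deposited (-0.85 and -0.49, adjusted p = 8.62e-08 and 1.01e-04).

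**Figure D4:**
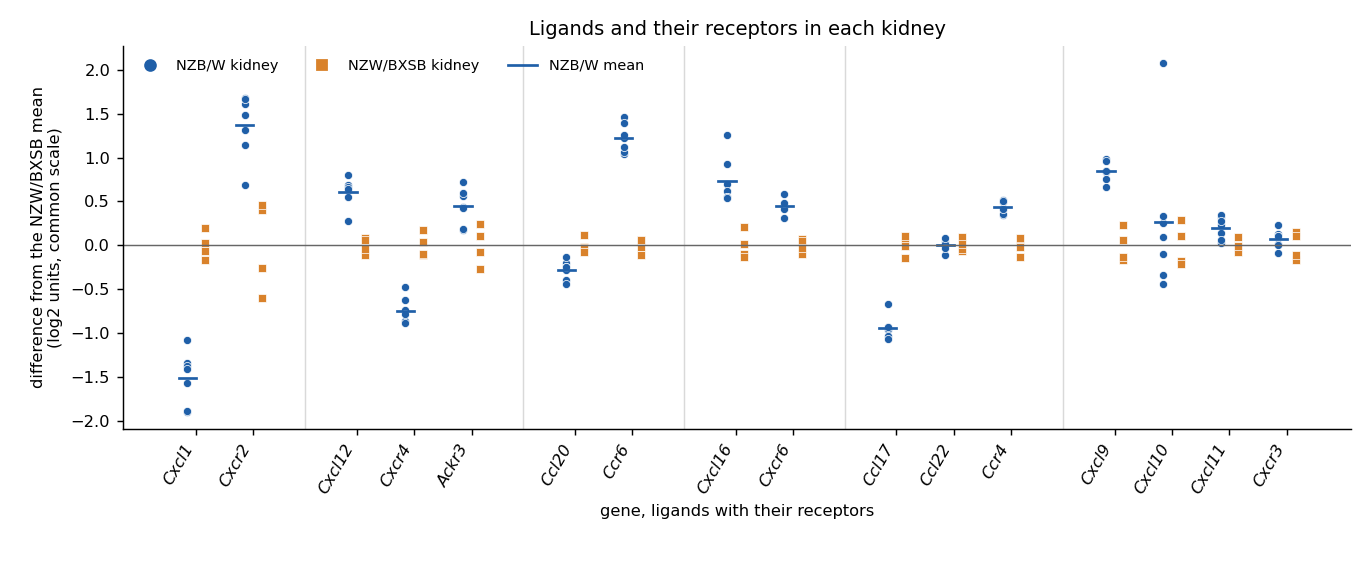
Each kidney's expression minus the NZW/BXSB mean of the same gene, in log2 units on the common scale, for ligands grouped with their receptors (blue circles, 7 NZB/W kidneys with their mean as a bar, orange squares, 4 NZW/BXSB kidneys). Cxcl1 lies below 0 and Cxcr2 above it in all NZB/W kidneys, and Ccl20 and Ccr6 likewise, with mean differences of the same sign as deposited; Cxcl12 and Ccr4 change sign as deposited (-0.11 and -0.14), as do Ackr3, Ccl22, Cxcl10, Cxcl11 and Cxcr3.

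Other genes of the pathway were given from lists that held no member. Of 14 other chemokines and receptors tested, 6 were higher and 2 lower (2 and 8 as deposited). Cxcl17, a chemokine of mucosal epithelia, was 2.10-fold higher, by 1.07 ± 0.12 (0.39 as deposited, adjusted p = 3.09e-06), and Xcr1, a receptor of cross-presenting dendritic cells, was 1.39-fold higher on the common scale, by 0.48 ± 0.07 (adjusted p = 5.60e-05), but -0.08 as deposited. Of 5 atypical receptors, 2 were higher and none lower (0 and 3 as deposited), among them Ackr1, which holds chemokines on venular endothelium and red cells, at 6.94 to 7.11 in NZB/W and 6.48, 6.57, 6.26 and 6.45 in NZW/BXSB. It was 1.49-fold higher, by 0.58 ± 0.06 on the common scale (adjusted p = 1.68e-06), and -0.10 as deposited.

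Of 26 genes of receptor signalling, 14 were lower and 9 higher (23 and 1 as deposited), where 36.1% and 33.3% of all tested genes were (84.0% and 5.56% as deposited). Pik3r5, a subunit of the phosphoinositide 3-kinase that G proteins activate in leukocytes, was 2.06-fold lower, by -1.04 ± 0.07 (-1.68 as deposited, adjusted p = 1.71e-08), and the leukocyte kinase Pik3cd at least 1.51-fold lower, by -0.67 ± 0.05 (-1.27 as deposited, adjusted p = 5.10e-08). Of the regulators that end G protein signalling, Rgs1 was at least 1.49-fold lower (difference -1.12, -1.66 as deposited) and Rgs14 was 1.99-fold higher (0.99, 0.30 as deposited). Genes that bind or process chemokines were 10 higher and 4 lower of 17 (0 and 15 as deposited). Sdc2, a heparan sulfate proteoglycan that can hold chemokines at the cell surface, was 2.27-fold lower, by -1.18 ± 0.07 (-1.89 as deposited, adjusted p = 4.11e-09). Dpp4, a protease that trims and inactivates several chemokines, was 1.36-fold higher on the common scale, by 0.44 ± 0.06 (adjusted p = 9.48e-06), and -0.28 as deposited.

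Chromosomes 11 and 5 held the most members, 11 and 9, and each of the 2 held both higher and lower members. The order among the members does not give the distances between them. On chromosome 11, 9 CC members follow each other in the order Ccl2, Ccl7, Ccl11, Ccl8, Ccl5, Ccl9, Ccl6, Ccl3 and Ccl4 among the members. On the common scale Ccl2, Ccl11, Ccl9 and Ccl6 were lower and Ccl7, Ccl8, Ccl5, Ccl3 and Ccl4 higher, and of the higher genes Ccl7, Ccl8 and Ccl3 changed sign as deposited. On chromosome 5 the order of the members was Cxcl5, Cxcl15, Cxcl1, Cxcl2, Cxcl9, Cxcl10, Cxcl11, Cxcl13 and Ccl24. There the lower gene Cxcl1 lay between Cxcl15, higher on the common scale and -0.11 as deposited, and Cxcl2, not called.

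The NZB/W kidneys varied among themselves. The median SD of the tested members was 0.15 in NZB/W and 0.12 in NZW/BXSB, against 0.12 and 0.08 for all tested genes. In 9 of the 31 tested members NZB/W replicates 6 and 7 both lay below the other 5 NZB/W kidneys (29%, against 7.7% of all tested genes), namely Ccl5, Ccl6, Ccl7, Ccl17, Cxcl1, Cxcl2, Cxcl10, Ccr2 and Cxcr3. In Cxcl1 they were 6.49 and 6.50 against 6.82 to 7.30, in Ccr2 5.94 and 5.99 against 6.21 to 6.50, and in Ccl6 5.83 and 6.03 against 6.32 to 6.41. The 2 kidneys were above the other 5 in Ccl25 alone (3.2%, against 7.2%). They also had the lowest means of macrophage and dendritic cell markers (7.72 and 7.95 against 8.17 to 8.34), of NF-kB pathway genes and targets (7.13 and 7.22 against 7.32 to 7.55) and of tubular injury genes (7.87 and 7.81 against 8.18 to 8.29), and the highest means of nephron markers (11.42 and 11.34 against 11.13 to 11.24). The list mean of B and plasma cell markers was lowest in them too (6.21 and 6.26 against 6.27 to 6.41). Within this list Jchain was 6.58 and 6.33 against 7.88 to 8.16, and Mzb1 was lowest in both kidneys as well. Ms4a1 (5.32 and 5.40 against 5.16 to 5.31) and Cr2 were highest in both kidneys, so the list did not move as a set. Of markers of tissues outside the kidney, those of perirenal fat were highest in both, at 9.17 and 9.30 against 8.20 to 9.09. Those of lymph node and thymus were highest in them too, at 5.95 and 5.96 against 5.80 to 5.89. Adrenal markers were not, at 7.89 in replicate 6 and 9.18 in replicate 7 against 5.50 to 8.56. The part of these lists in the low chemokine values was not tested. Without both kidneys 16 members were higher and 9 lower.

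**Figure D5:**
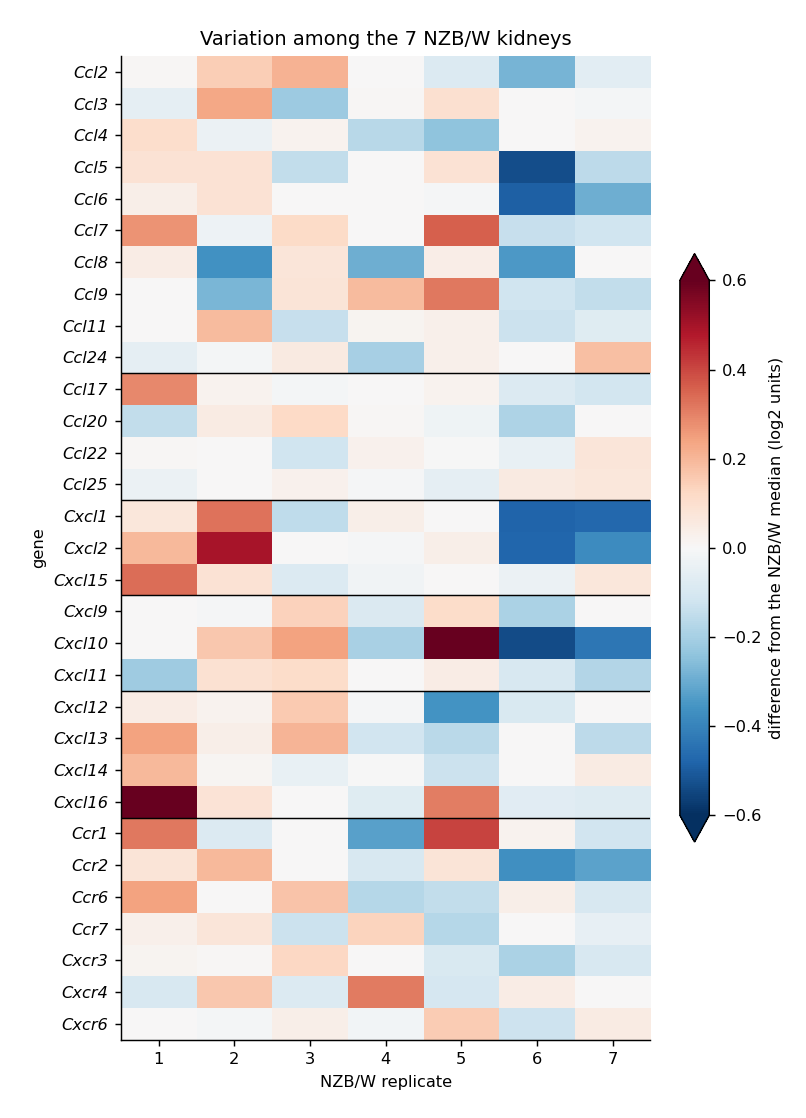
Difference of each NZB/W kidney from the NZB/W median of the gene, in log2 units on the common scale (red higher, blue lower), for the 31 tested members in rows and NZB/W replicates 1 to 7 in columns, with lines between the groups of genes. Replicates 6 and 7 are blue for Cxcl1, Cxcl2, Cxcl10, Ccl6 and Ccr2, and replicate 5 is beyond the colour range for Cxcl10 and replicate 1 for Cxcl16.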

How the data were processed

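RNA of 11 whole kidneys was extracted with Trizol, labelled as biotinylated cRNA and hybridised to Affymetrix arrays. According to the submitters' notes the authors used RMA (version not given in the sources used here), and their deposited log2 values filled 16539 rows, 16475 of them Entrez genes. They also deposited a Yes or No call per gene and strain for expression above baseline (Yes for 13366 NZB/W and 14191 NZW/BXSB genes). The arrays were normalized and corrected for batch jointly per the study's methods. The reason for the offset between the strains, the genome build of the gene assignment and the samples behind the baseline calls were not found in the labels, files or methods.

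Genes were named through the RefSeq table of GRCm38.p6 (16229) or the deposited symbol (246). The deposited log2 values were quantile normalized over the 11 arrays (the common scale) and tested with limma 3.58.1 (lmFit, eBayes, R 4.3.3), NZB/W against NZW/BXSB with no covariate, over the 14419 genes above baseline in at least 1 strain, with a threshold of 0.05 on the Benjamini-Hochberg adjusted p. Intervals are 95%. A fold was given as a lower bound against the background level where 1 strain was dim (not above baseline, or with a mean below that level), and not given where both were or where that bound was under 1. The procedure was tested on simulated data. No 2 samples held identical values, and correlations between arrays of a strain were 0.985 to 0.997. Samples are numbered within their strain, and the labels name no batch and no animal, so that p-values measure only the spread between these samples, which may be technical, and the number of arrays limits the precision.

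Values by kidney are given for called members, for members in which a kidney stood apart and for those they are compared with. From the other lists at most 4 genes with the smallest p, ligand or receptor partners and sex-linked genes were taken. Some genes that this rule takes are not reported here. Ccl12, Ccr9, Ifit1, Jchain, Mzb1, Ms4a1, Cr2, Sele, Il6, Cebpb and the kidney values beside a single-kidney pattern were chosen after their values were seen. The members and lists were chosen with earlier results of these data known. Alternatives were the deposited scale, median centring, 2 other filters on dim genes, an intensity trend, array weights, the fold limits of the study, leaving out kidneys, a replicate block and an exact permutation test.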

Additional observations from a re-analysis of the deposited data

Results flagged for a closer look

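In 4 of 68 groups of kidneys (34 genes in each of 2 strains), 1 kidney lay farther from the others than Dixon's 95% limit allows, and chance alone gives about 1 in 20. All 4 were NZB/W kidneys. Cxcl10 was 9.43 in replicate 5, against 6.92 to 7.70 in the other 6. Ccl5 was lowest in replicate 6, at 7.02 against 7.39 to 7.64, and this kidney was still above all NZW/BXSB kidneys. Replicate 1 was highest for Ccl17, at 6.27 against 5.87 to 6.00, and for Cxcl15, at 5.92 against 5.50 to 5.67. Ccl17 kept its call as lower without replicate 1, and Ccl5 and Cxcl15 kept theirs as higher on the common scale without replicates 6 and 1, while as deposited neither was called.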

How the results depend on the processing

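As deposited, 2 members were called higher and 17 lower (801 and 12105 of all tested genes, against 4798 and 5203 on the common scale), and the median difference of the members was -0.37. There the sign turned for 12 members: Ccl3 -0.06, Ccl7 -0.18, Ccl8 -0.05, Ccl22 -0.60, Ccl24 -0.37, Cxcl10 -0.42, Cxcl11 -0.34, Cxcl12 -0.11, Cxcl13 -0.24, Cxcl15 -0.11, Ccr7 -0.09 and Cxcr3 -0.61. The offset of the median gene between the scales, -0.69, is built into this alternative. With the fold limits of the study, 8 members were higher and 5 lower (2056 and 1963 of all tested genes). Leaving out 1 kidney at a time gave 14 to 16 members higher and 9 to 11 lower, 4469 to 4814 and 4842 to 5227 of all tested genes, and a median difference of 0.19 to 0.34. Cxcl10 turned to -0.03 without NZB/W replicate 5 (range -0.03 to 0.39). Ccl22 (range -0.014 to 0.04) turned to -0.0065 without NZB/W replicate 7, to -0.014 and -0.0083 without NZW/BXSB replicates 2 and 3, and to -0.0021 without NZB/W replicates 6 and 7 together. Kidneys were not treated as pairs, since a replicate number names different mice of different strains. The correlations of deviations between kidneys of the same number were -0.08, 0.28, -0.002 and -0.13. With no other pairs of kidneys set beside them, these values cannot show whether the numbers pair kidneys. With the replicate number as a block, the counts were 16 members higher and 9 lower (median 0.23), the call of Ccl2 was lost (-0.15) and Ccl22 was -0.0064. All 31 members kept direction and side of the threshold with an intensity trend and without a filter on dim genes. They did so too in the exact permutation test (330 splits, smallest p 0.00303), where the unadjusted p was set against 0.05. With only genes above baseline in both strains, the 29 that could be tested did so as well. Leaving aside the deposited scale and the fold limits of the study, 23 of the 31 did so in every other alternative in which they were tested. The cause of the other changes was not tested. Dim genes limit what can be read: no fold was given for 8 members.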
